A study of Mus musculus with 16 samples.

Results

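Collagen genes were examined in the tibialis anterior, a muscle at the front of the lower leg, of WT and Bin1mck-/- mice, treated or not with an antisense oligonucleotide (ASO1) against Dnm2. A gene belonged to the set when its symbol had the form of a collagen chain (Col, a number, a, a number) and its reads summed to at least 100 over the 16 samples. Of 44 such symbols among the 29730 genes of the table, 41 were members and 3 fell short, namely Col4a6 with 84 counts, Col6a4 with 10 and Col10a1 with 9. The least counted members just inside the limit were Col9a2 with 117 counts and Col19a1 with 127. The members were divided into 11 fibrillar collagens, 7 basement membrane collagens, 5 chains of type VI and 18 other collagens. A filter on low counts kept 40 of the 41 for testing and took out Col9a2.

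All mice were male, 7 weeks old and of the C57BL/6N strain. The 4 groups of 4 samples were WT mice given PBS (WT_PBS), WT mice given the oligonucleotide (WT_ASO), Bin1mck-/- mice given PBS (KO_PBS) and Bin1mck-/- mice given the oligonucleotide (KO_ASO). Bin1 encodes amphiphysin 2, a membrane-curving protein, Dnm2 encodes the membrane-cutting GTPase dynamin 2, and the series presents Bin1mck-/- as a model of recessive centronuclear myopathy. The labels do not spell out the mck of the genotype name, and the cells and promoter that drive the deletion, the deleted part of Bin1 and the dose and schedule of the oligonucleotide were not named there. The labels also do not say whether each sample came from a separate mouse, and if it did not, the P values measure only the spread between these samples.

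Collagens are triple helices wound from chains that the individual genes encode. Fibrillar types I and III form the load-bearing fibres of the endomysium, perimysium and tendon, and type V chains join them and limit their diameter. Type IV forms the network of the basement membrane that wraps each muscle fibre and capillary, where types XV and XVIII are also placed. Type VI builds beaded microfilaments next to that membrane, and inherited loss of it causes muscular dystrophy. The remaining members include chains that decorate fibrils, short network chains, and chains with a membrane anchor that take part in forming the neuromuscular junction. In muscle most fibrillar collagen is made by fibroblasts and fibro-adipogenic progenitors, while endothelium and other vessel cells make much of the type IV.

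Depth ran from 27591900 to 40862854 counts per sample. Bin1 was between 462.6 and 619.8 CPM (counts scaled to a library of 1000000 after TMM normalization) in WT samples and between 31.7 and 47.7 in Bin1mck-/- samples, and Dnm2 was between 50.2 and 67.7 CPM with PBS and between 20.7 and 31.1 with the oligonucleotide, with no overlap in either case. The 6 myofibre genes Acta1, Ckm, Mylpf, Tnnt3, Pvalb and Myh4 summed to between 94640 and 203100 CPM in every sample. The members Col4a1 and Col4a2 lie head to head on chromosome 8 and overlap by 22 bases on opposite strands. Col18a1 overlaps Slc19a1 on the other strand and Col20a1 overlaps the predicted gene BX649560.1 on its own strand, and because no source states the strand setting of the counting, reads in those overlaps are uncertain. In bulk muscle, fewer cells of a type and less RNA per cell cannot be told apart.

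Levels were compared between genes as RPKM, that is CPM per kilobase of exon, with the length taken over all annotated exons of a gene. This length can exceed that of the main transcript, so ranks, ratios and class sums partly depend on the annotation. In WT_PBS muscle 6 members had a mean of at least 10 RPKM, 12 were from 1 to 10 and 23 were under 1, and the 5 highest held 71.6% of the summed level. Col1a1, a chain of type I, measured 45.2 ± 2.85 RPKM (SD, n = 4). Col4a1, a chain of type IV, measured 44.0 ± 4.43 (SD, n = 4) and its partner Col4a2 37.5 ± 3.34 (SD, n = 4). Col3a1, the single chain of type III, measured 41.1 ± 11.1 RPKM (SD, n = 4) and Col1a2, the other chain of type I, 28.7 ± 4.83 (SD, n = 4). The samples of Col1a1, Col4a1, Col3a1 and Col4a2 overlapped one another, so these leading genes were not ordered by their spread. Col6a1, a chain of type VI, followed at 18.4 ± 1.16 RPKM (SD, n = 4), with every sample below every sample of Col1a2. At the bottom were Col25a1, a gene studied for its part in neuromuscular synapses, with a mean of 0.0263 RPKM and Col19a1 with 0.0277. Their bulk levels rested on 3 to 25 counts and on 4 to 22 counts per sample, in this order.

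**Figure D1:**
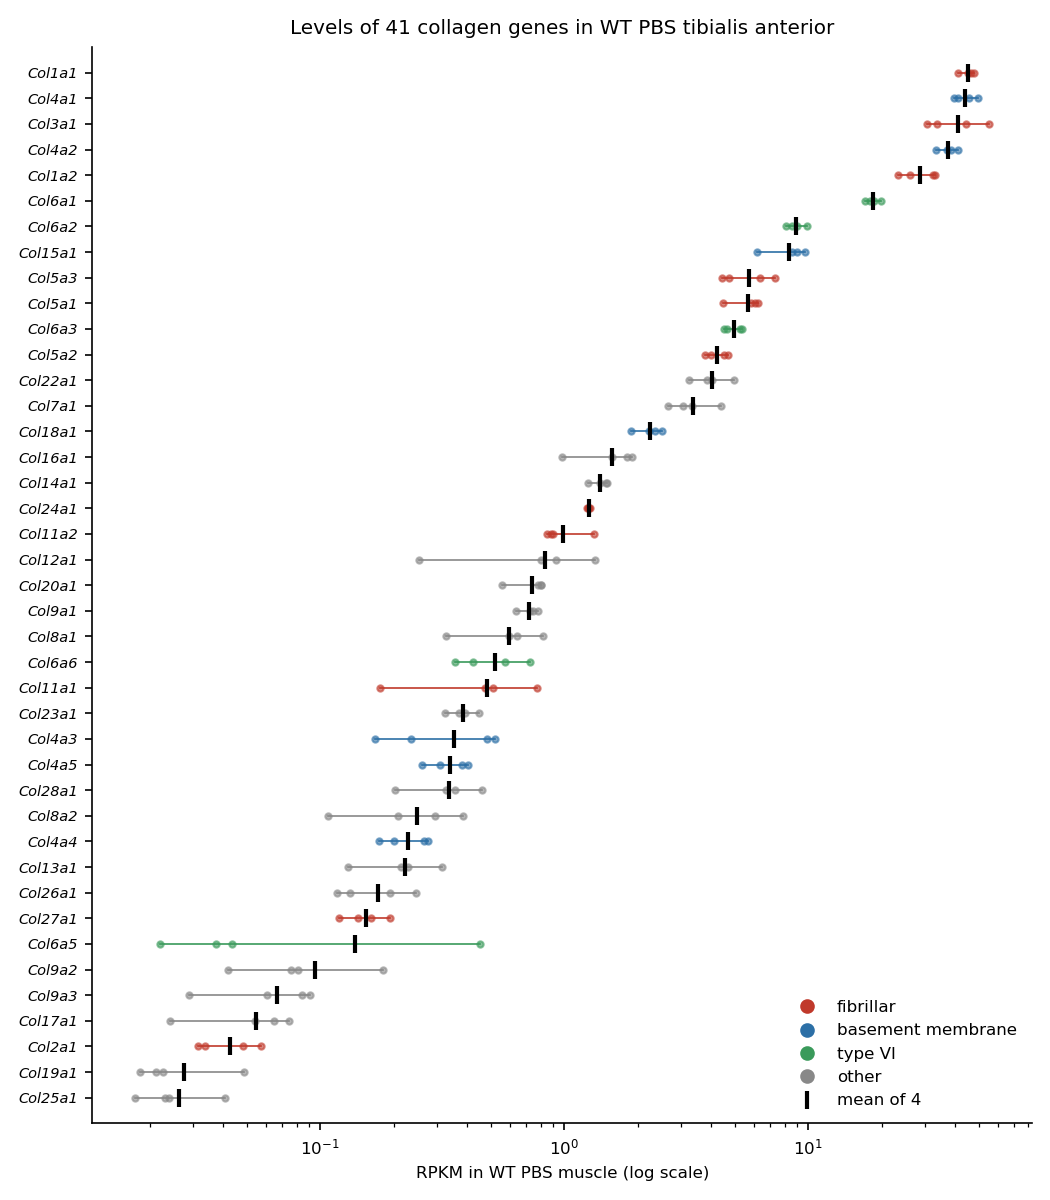
RPKM of the 41 collagen genes in the 4 WT_PBS samples on a log scale, with 1 point per sample coloured by class, a line over their range and a black bar at the mean. Col1a1, Col1a2, Col3a1, Col4a1 and Col4a2 sit at the right end, from 28.7 to 45.2 RPKM on average, and 23 of the 41 genes lie under 1 RPKM.

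Level ratios between chains that assemble with each other were narrow for types I, IV and VI and wider for type V. The RPKM of Col4a1 over that of Col4a2, which are wound into one trimer, lay between 1.06 and 1.33 in all 16 samples. Col1a1 over Col1a2 lay between 1.41 and 1.99, with group means of 1.60 ± 0.182 in WT_PBS, 1.59 ± 0.21 in WT_ASO, 1.78 ± 0.140 in KO_PBS and 1.61 ± 0.198 in KO_ASO (SD, n = 4 each). Among type VI chains, Col6a1 over Col6a2 lay between 1.76 and 2.73 and Col6a3 over Col6a1 between 0.208 and 0.302. The exon lengths used were 4380 bases for Col6a1 and 8326 for Col6a2, whose mean CPM in WT_PBS were 80.6 and 74.1. For Col1a1 and Col1a2 they were 6563 and 12426 bases, with mean CPM of 296.3 and 356.7 in WT_PBS. The size of a ratio thus depends on these lengths, while its relative spread between samples does not. The ratio between the type V chains was less even across groups. Col5a1 over Col5a2 measured 1.19, 1.39, 1.45 and 1.29 in WT_PBS and 0.860, 1.096, 1.11 and 0.939 in KO_PBS, and these groups did not overlap. In KO_ASO the same ratio was 1.26, 1.22, 1.12 and 1.20. These lay above all KO_PBS samples, but narrowly, with 1.115 as the lowest KO_ASO value and 1.106 as the highest KO_PBS value. In WT_ASO it was 1.103, 1.573, 1.462 and 1.099, with replicates 1 and 4 inside the KO_PBS range. The ratios were described without a test. Col5a3 over Col5a1 was the widest of these ratios, from 0.729 to 1.98 over the 16 samples, with group means of 1.05 ± 0.404 in WT_PBS and 1.37 ± 0.535 in KO_ASO (SD, n = 4 each).

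**Figure D2:**
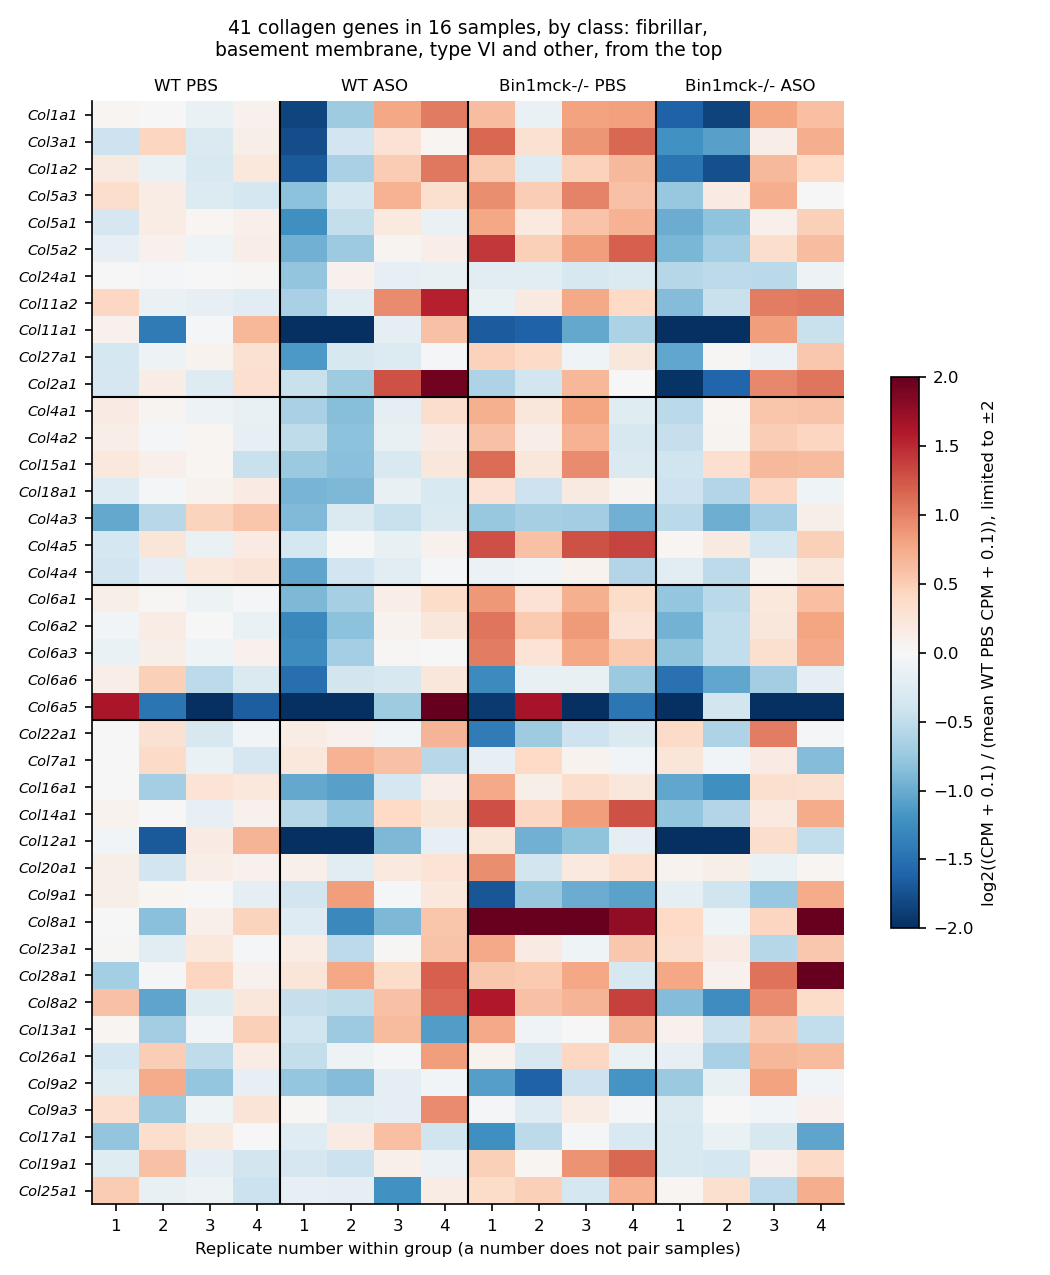
Level of each of the 41 collagen genes (rows, by class and by WT_PBS level) in each of the 16 samples (columns), as log2 of CPM plus 0.1 over the WT_PBS mean plus 0.1, red for higher and blue for lower, with colours limited to 2 in either direction. KO_PBS columns are red over most fibrillar and type VI rows, while WT_ASO and KO_ASO each hold 2 columns that are blue and 2 that are near or above the WT_PBS mean over most fibrillar rows.

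The first comparison asked which collagen genes differed between Bin1mck-/- and WT muscle without treatment. Of 40 tested members, 2 were higher and 1 lower in KO_PBS than in WT_PBS. Col4a5, a chain of the minor type IV network, rose 2.29-fold, Col8a1, a short network chain of vessel walls and the cornea, rose 7.19-fold, and Col9a1, a fibril-surface chain best known from cartilage, was 2.198-fold lower. The threshold for a differentially expressed gene (DEG) was an adjusted P value of 0.05 in edgeR's quasi-likelihood test, with Benjamini-Hochberg adjustment over 14960 genes. Among all genes tested 12.6% were called, 7.43% higher and 5.12% lower, so the share of members called in this fit of all 16 samples, 7.5%, lay under the background. In a fit of the 8 PBS samples alone the order was the other way, with 11 of 39 members called beside 14.3% of all genes. By direction without a test, 29 of the 40 had a log2FC above 0, and the median log2FC was 0.39 against -0.01 over all genes tested. The 4 KO_PBS samples lay above the 4 WT_PBS samples for 10 of the 40 members, or 25.0%, where 10.5% of all genes did so, and below them for 2 members, Col9a1 and Col24a1, where 9.85% of all genes did. At an unadjusted P value under 0.05 there were 10 members, beside 27.3% of all genes.

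The bases just upstream of these 3 genes are given because they were the members that passed the test, from the RefSeq promoter windows of build GRCm38.p6, which held 32 of the 41 members. Each line shows 150 bases on the gene's strand, ending at the base before the annotated start (for Col4a5 the GENCODE start, 34 bases before that of RefSeq). Capitals mark matches, on either strand, to the GC box (letters GGGCGG), to the CCAAT box (letters named likewise) and to the TATA box (letters TATAAA), which do not overlap one another here.
Col4a5, chrX:141475235-141475384, plus strand: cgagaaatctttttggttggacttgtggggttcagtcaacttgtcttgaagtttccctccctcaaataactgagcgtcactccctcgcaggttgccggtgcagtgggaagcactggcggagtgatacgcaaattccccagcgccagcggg
Col8a1, chr16:57754738-57754887, minus strand: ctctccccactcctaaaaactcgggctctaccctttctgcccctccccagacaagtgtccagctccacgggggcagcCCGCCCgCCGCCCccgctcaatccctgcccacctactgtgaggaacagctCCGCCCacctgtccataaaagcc
Col9a1, chr1:24177460-24177609, plus strand: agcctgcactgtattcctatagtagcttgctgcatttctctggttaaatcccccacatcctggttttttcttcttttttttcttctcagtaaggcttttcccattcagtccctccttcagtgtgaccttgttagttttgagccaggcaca
The Col8a1 window held 3 GC boxes, and those of Col4a5 and Col9a1 held 0 of the 3 motifs. Of the 32851 windows in the table, 28.6% held a GC box, 24.5% a CCAAT box and 7.57% a TATA box. Of the 35 windows of members, 48.6% held a GC box, 22.9% a CCAAT box and 8.57% a TATA box. These matches describe the letters only.

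Col4a5 (ENSMUSG00000031274, chromosome X, 141475385 to 141689234, plus strand, GRCm38, protein coding) measured 1.76, 2.72, 2.08 and 2.56 CPM in WT_PBS and 5.74, 3.46, 5.63 and 5.99 CPM in KO_PBS. Every KO_PBS sample was above every WT_PBS sample, with replicate 2 the lowest of its group. The log2FC was 1.20 (SE 0.21, edgeR adjusted P = 0.0015). Its neighbour Col4a6 on the other strand of chromosome X had too few counts to enter the set.

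Col8a1 (ENSMUSG00000068196, chromosome 16, 57624258 to 57754737, minus strand, protein coding) had the largest positive log2FC of the 40 tested members in this comparison. It measured 4.65, 2.57, 5.03 and 6.39 CPM in WT_PBS and 70.5, 28.7, 20.1 and 16.1 CPM in KO_PBS. The groups were well apart, and KO_PBS itself ranged widely, with replicate 1 the highest. The log2FC was 2.85 (SE 0.59, edgeR adjusted P = 0.00686), and without KO_PBS replicate 1 the rise was 4.61-fold in place of 7.19-fold. Its sister chain Col8a2, which can join it in type VIII, was at 1.12 ± 0.532 CPM in WT_PBS and 2.56 ± 0.917 in KO_PBS (SD, n = 4), with samples that did not overlap and a log2FC of 1.18 that did not pass (SE 0.51, edgeR adjusted P = 0.146).

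Col9a1 (ENSMUSG00000026147, chromosome 1, 24177610 to 24252684, plus strand, protein coding) measured 3.95, 3.76, 3.68 and 3.21 CPM in WT_PBS. In KO_PBS it measured 1.05, 2.13, 1.78 and 1.68 CPM, each below every WT_PBS sample. The log2FC was -1.14 (SE 0.32, edgeR adjusted P = 0.0277), and the call was lost when any of WT_PBS replicates 1, 2 and 3 or KO_PBS replicates 1 and 4 was left out. Of 4 listed cartilage markers Matn1 was not in the table. The other markers, Acan, Cnmd and Hapln1, summed to at most 0.830 CPM in any sample, and Col2a1, the main fibrillar chain of cartilage, was at most 1.78 CPM.

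**Figure D3:**
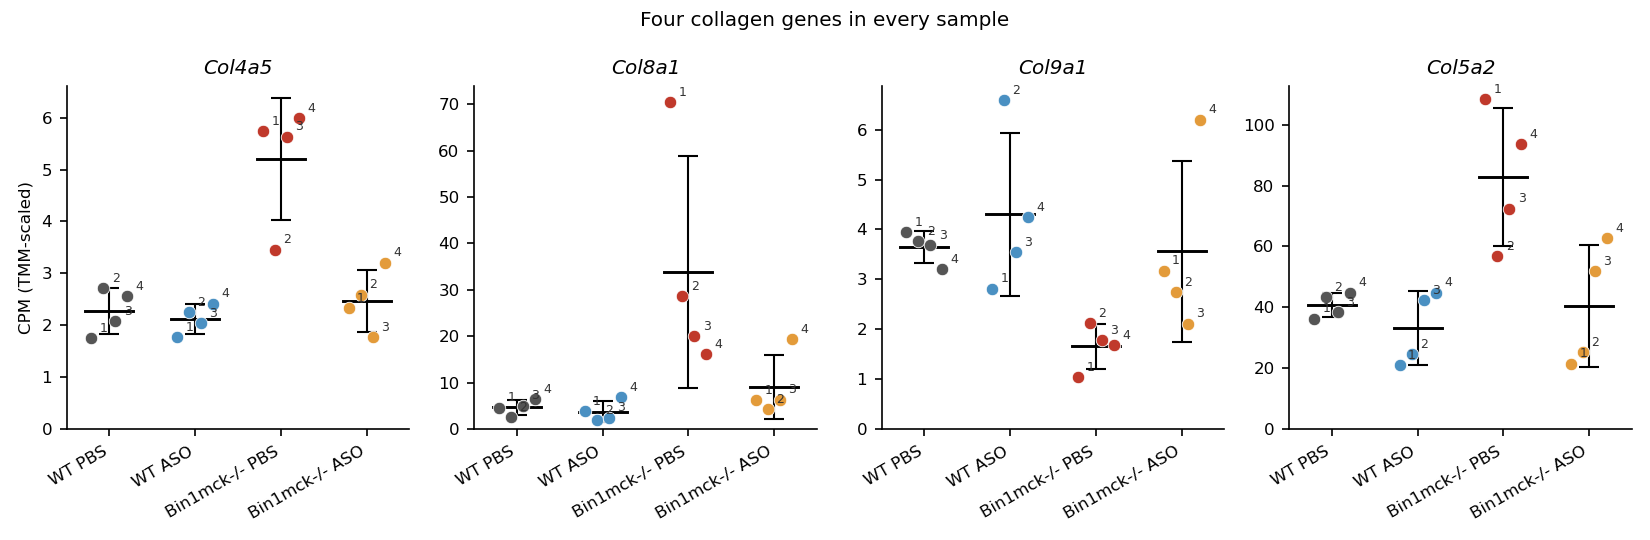
CPM of Col4a5, Col8a1, Col9a1 and Col5a2 in every sample of the 4 groups, with the replicate number beside each point and bars at the mean ± SD of 4 samples. The KO_PBS points lie above all WT_PBS points for Col4a5, Col8a1 and Col5a2 and below them for Col9a1, and Col4a5 in KO_ASO, from 1.77 to 3.21 CPM, lies below all KO_PBS points.

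Among the 11 fibrillar collagens 0 passed the edgeR test on all 16 samples and 2 had an unadjusted P value under 0.05, beside 12.6% and 27.3% of all genes. DESeq2 called Col5a2, beside 14.1% of all genes. An edgeR fit of the 8 PBS samples alone called Col3a1, Col5a1, Col5a2 and Col5a3, beside 14.3% of all genes. The log2FC of the 11 genes in the fit of all samples ran from -1.20 to 1.02 with a median of 0.39, and 9 of 11 were above 0. The summed level of the class was 128.5, 146.0, 115.7 and 143.9 RPKM in WT_PBS and 235.9, 138.8, 224.5 and 246.0 in KO_PBS. In KO_PBS 3 samples stood above all WT_PBS samples and replicate 2 lay within their range. Col1a1 measured 304.2, 295.9, 270.7 and 314.5 CPM in WT_PBS and 452.6, 270.0, 516.6 and 522.0 in KO_PBS (log2FC 0.57, SE 0.62, edgeR adjusted P = 0.608). Its KO_PBS replicate 2 lay below every WT_PBS sample, and Col1a2 showed the same arrangement within the WT_PBS range, at 298.1 CPM in that replicate against 492.8 to 560.2 in the others. Col3a1 measured 302.5, 542.6, 332.1 and 437.5 CPM in WT_PBS and 897.5, 496.2, 742.7 and 893.5 in KO_PBS (log2FC 0.91, SE 0.45, edgeR adjusted P = 0.212).

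The 3 type V chains, which start and regulate type I fibrils, each had all KO_PBS samples above all WT_PBS samples, beside 10.5% of all genes. Col5a2 measured 36.3, 43.2, 38.5 and 44.8 CPM in WT_PBS and 108.3, 56.9, 72.5 and 93.5 in KO_PBS, and its log2FC of 1.02 lay just outside the threshold (SE 0.33, edgeR adjusted P = 0.0543). Col5a1 was between 38.1 and 53.0 CPM in WT_PBS and between 55.2 and 82.4 in KO_PBS (log2FC 0.58, SE 0.31, edgeR adjusted P = 0.251). Col5a3 was between 30.3 and 49.8 CPM in WT_PBS and between 54.9 and 77.6 in KO_PBS (log2FC 0.77, SE 0.32, edgeR adjusted P = 0.132). Col3a1 and Col5a2, which both had log2FC values near 1, are neighbours on chromosome 1, 24.6 kb apart. The one fibrillar gene with all KO_PBS samples below WT_PBS was Col24a1, at 9.60 ± 0.132 CPM and 8.0 ± 0.296 CPM (SD, n = 4). Its log2FC was -0.26 (SE 0.15, edgeR adjusted P = 0.266), and it was singled out after its values were seen.

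**Figure D4:**
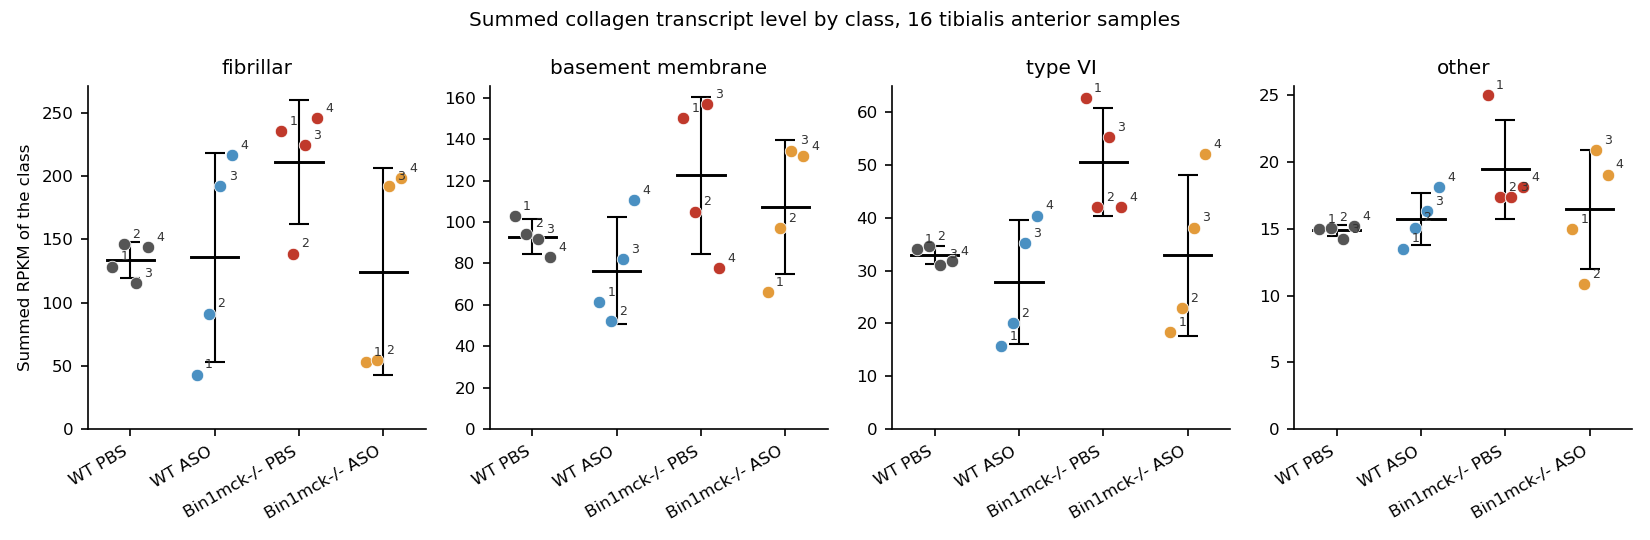
Summed RPKM of the fibrillar, basement membrane, type VI and other collagens in every sample, with the replicate number beside each point and bars at the mean ± SD of 4 samples per group. WT_PBS samples are tightly grouped in every class, KO_PBS type VI sums, from 42.0 to 62.6, all exceed WT_PBS, and fibrillar sums in WT_ASO run from 43.0 to 216.9.

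Of the 7 basement membrane collagens Col4a5 was the only DEG, beside 12.6% of all genes. The abundant chains of the class were spread widely in KO_PBS. Col4a1 measured 369.6, 339.2, 307.0 and 296.8 CPM in WT_PBS and 537.7, 383.2, 567.9 and 278.4 in KO_PBS, so replicate 4 lay below all WT_PBS samples and the other three lay above them (log2FC 0.43, SE 0.28, edgeR adjusted P = 0.359). Col4a2 followed it, with 220.7 to 273.4 CPM in WT_PBS and 371.5, 273.9, 403.1 and 199.1 in KO_PBS (log2FC 0.33, SE 0.24, edgeR adjusted P = 0.418). Col15a1, a proteoglycan of the outer basement membrane, had 39.01 to 61.5 CPM in WT_PBS and 115.2, 62.1, 102.5 and 43.4 in KO_PBS (log2FC 0.61, SE 0.31, edgeR adjusted P = 0.228). In these 3 genes KO_PBS replicates 1 and 3 were the highest and replicate 4 the lowest, an order unlike that of Col1a1, in which replicate 2 was the lowest. Col18a1, the precursor of endostatin, was at 15.8 ± 1.90 CPM in WT_PBS and 16.4 ± 3.25 in KO_PBS (SD, n = 4). Its log2FC was 0.05 and had a 95% interval from -0.41 to 0.52. The endothelial markers Pecam1, Cdh5, Kdr, Tie1, Esam and Egfl7 gave 0 DEGs in this comparison, and their sum was 408.9 to 573.2 CPM in WT_PBS and 370.6 to 518.7 in KO_PBS, with replicate 3 the highest and replicate 4 the lowest in KO_PBS. The part of vessel content in the type IV values was not tested.

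The 5 type VI genes gave 0 DEGs in the fits of all 16 samples with edgeR, DESeq2 and limma-voom with sample weights. With edgeR 0 had an unadjusted P value under 0.05, beside 27.3% of all genes. An edgeR fit of the 8 PBS samples alone called Col6a1, Col6a2 and Col6a3 higher, beside 8.52% of all genes. Of the 5, the same 3 chains had every KO_PBS sample above every WT_PBS sample, beside 10.5% of all genes. Col6a1 measured 87.1, 81.5, 75.1 and 78.8 CPM in WT_PBS and 146.9, 98.1, 132.5 and 103.9 in KO_PBS (log2FC 0.58, SE 0.30, edgeR adjusted P = 0.227). Col6a2 was between 67.6 and 82.5 CPM in WT_PBS and between 90.3 and 156.3 in KO_PBS (log2FC 0.72, SE 0.36, edgeR adjusted P = 0.211). Col6a3, whose chain completes the trimer, was between 54.1 and 64.2 CPM in WT_PBS and between 71.9 and 120.6 in KO_PBS (log2FC 0.68, SE 0.32, edgeR adjusted P = 0.187). Col6a1 and Col6a2 are neighbours on chromosome 10, 85.2 kb apart, and Col6a3 lies on chromosome 1. The class sum was 32.9 ± 1.69 RPKM in WT_PBS and 50.5 ± 10.2 in KO_PBS (SD, n = 4). The low-level chains did not share this pattern, since Col6a6 had a log2FC of -0.51 (SE 0.36, edgeR adjusted P = 0.393) and Col6a5 was dominated by a single sample in every group.

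Of the 17 other collagens tested, Col8a1 and Col9a1 were DEGs, beside 12.6% of all genes. Col14a1, which coats type I fibrils, measured 10.4, 9.80, 8.77 and 10.5 CPM in WT_PBS and 24.3, 13.1, 17.7 and 23.9 in KO_PBS, with no overlap and a log2FC of 1.004 just outside the threshold (SE 0.33, edgeR adjusted P = 0.0561). Col12a1, the related fibril-surface chain, was at 12.7 ± 6.80 CPM and 9.93 ± 3.93 CPM (SD, n = 4), with a log2FC of -0.36 and a 95% interval from -1.79 to 1.08. Col22a1, found at the myotendinous junction, measured 37.0, 45.7, 29.8 and 35.6 CPM in WT_PBS and 14.0, 22.6, 27.7 and 30.2 in KO_PBS (log2FC -0.65, SE 0.30, edgeR adjusted P = 0.18). The groups of Col22a1 overlapped only through KO_PBS replicate 4 and WT_PBS replicate 3. Of the genes tied to the neuromuscular junction, Col13a1 had a log2FC of 0.41 (SE 0.39, edgeR adjusted P = 0.542) and Col25a1 of 0.43 (SE 0.41, edgeR adjusted P = 0.548). Col19a1 had a log2FC of 1.01 (SE 0.40, edgeR adjusted P = 0.108). Col19a1 is a neighbour of Col9a1, 9.21 kb away on the other strand, and the estimates of this pair had opposite signs.

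The number of collagen calls differed between fits. The median coefficient of variation of the members was 21.9% in WT_PBS and 27.1% in KO_PBS but 40.99% in WT_ASO and 43.6% in KO_ASO, while over all genes tested it was between 13.2% and 16.7% in the 4 groups. In a fit of the 8 PBS samples alone, which also repeated the filter on low counts, 11 of 39 members tested were called, 10 higher and 1 lower, where that fit called 14.3% of all genes and 8.52% higher. The 8 added to the first 3 were Col3a1, Col5a1, Col5a2, Col5a3, Col6a1, Col6a2, Col6a3 and Col14a1. Their log2FC values in that fit, from 0.58 to 1.03, were close to those in the fit of all samples, while the SE of Col6a1, for example, was 0.13 in place of 0.30 (edgeR adjusted P = 0.0163). Col1a1 had a log2FC of 0.58 (SE 0.18, edgeR unadjusted P = 0.0102) and Col1a2, Col4a1 and Col4a2 were not called in it either. In the fit of all groups without KO_PBS replicate 2, and with DESeq2, 5 members were called, since Col5a2 and Col14a1 passed as well, where these fits called 10.1% and 14.1% of all genes. With limma-voom with sample weights 4 were called, with Col14a1 added, beside 18.0% of all genes. With the replicate number added to the edgeR fit as a block 5 were called. Col5a2 and Col14a1 were added there, where calls over all genes went from 1878 to 2322.

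**Figure D5:**
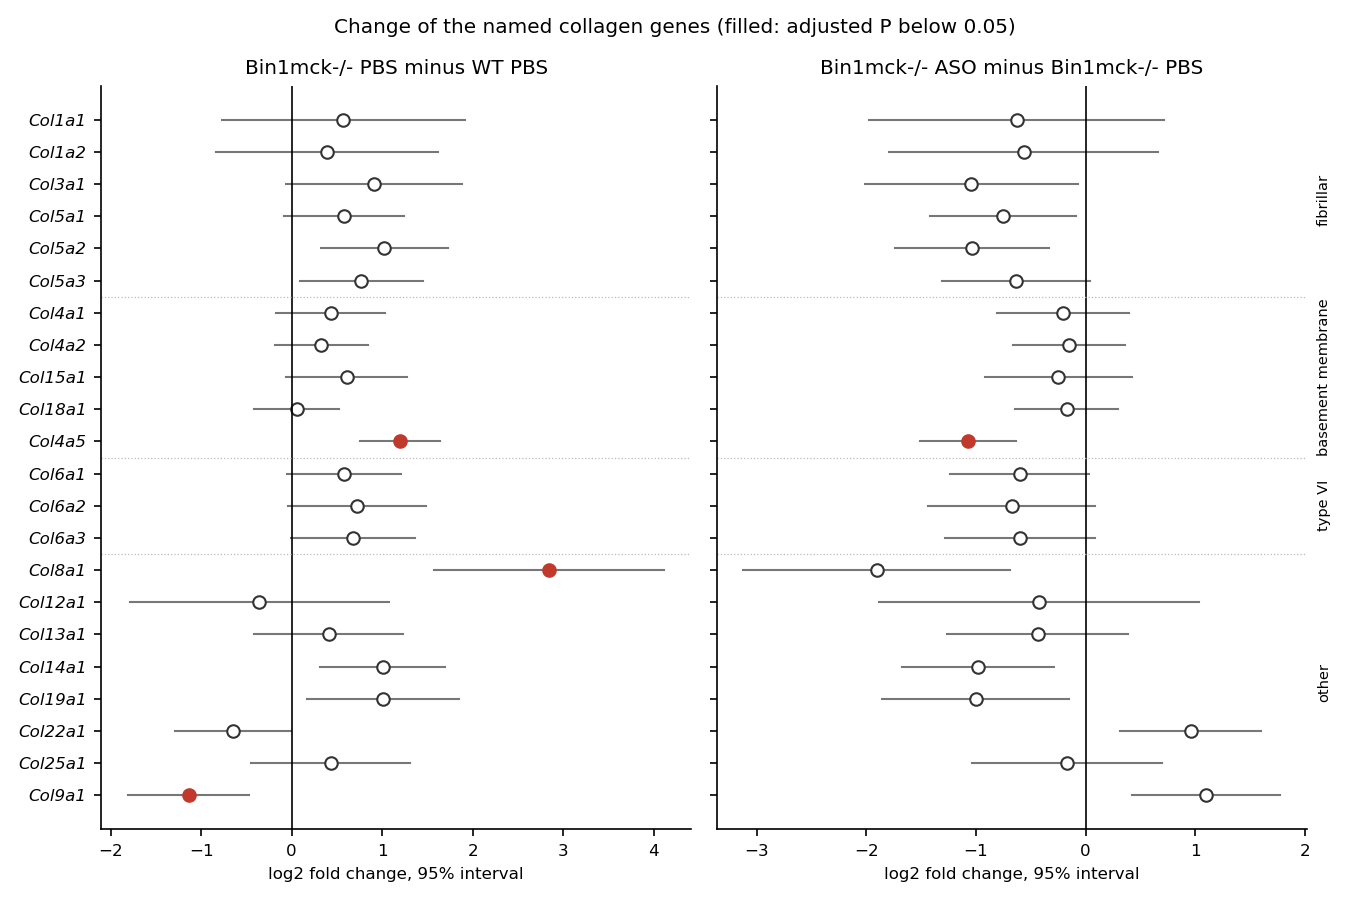
Log2FC with its 95% interval for the 22 named collagen genes, by class, for KO_PBS minus WT_PBS (left) and KO_ASO minus KO_PBS (right), from the fit of all 16 samples, with filled circles for an adjusted P value under 0.05. On the left Col4a5 and Col8a1 lie above 0 and Col9a1 below, on the right only Col4a5 is filled, and both panels share the KO_PBS samples.

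Genes that act on collagen were counted from lists chosen by function, to be read beside the 12.6% of all genes called in KO_PBS against WT_PBS and 3.64% in KO_ASO against KO_PBS. In KO_PBS against WT_PBS, 1 of 19 tested genes for intracellular modification and folding was higher (P3h2, a prolyl hydroxylase of basement membrane collagens, log2FC 1.45, SE 0.29, edgeR adjusted P = 0.00443) and 1 was lower (Mia3, which loads collagen into transport carriers, log2FC -0.37, SE 0.10, edgeR adjusted P = 0.0221). Of 7 propeptide processing genes Pcolce2, an enhancer of propeptide removal, was higher (log2FC 0.86, SE 0.20, edgeR adjusted P = 0.0118). Of 5 crosslinking enzymes Lox and Loxl1 were higher, at log2FC 2.02 (SE 0.41, edgeR adjusted P = 0.005) and 1.46 (SE 0.25, edgeR adjusted P = 0.00127). Of 8 collagen receptors Itgb1 was higher (log2FC 0.52, SE 0.09, edgeR adjusted P = 0.00127). The median log2FC of these lists was 0.18, 0.45, 0.67 and 0.32, in the same order. After the oligonucleotide in Bin1mck-/- muscle, Pcolce2 (log2FC -1.0, SE 0.21, edgeR adjusted P = 0.0138) and Loxl1 (log2FC -0.93, SE 0.24, edgeR adjusted P = 0.044) were lower and no other gene of the 4 lists passed.

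Markers of collagen-making and other cells were counted in the same way, and the counts differed between lists, beside the same shares of all genes. Of 7 fibroblast and fibro-adipogenic progenitor markers, 5 were higher in KO_PBS than in WT_PBS, their sum was 82.5 to 98.2 CPM in WT_PBS and 144.5 to 214.5 in KO_PBS, and 3 were lower in KO_ASO than in KO_PBS. Of 7 tendon markers Scx was higher in KO_PBS and lower in KO_ASO, with sums of 111.7 to 240.1 CPM in WT_PBS and 164.2 to 321.2 in KO_PBS. All 6 macrophage markers were higher in KO_PBS, with sums of 22.9 to 40.9 CPM in WT_PBS and 65.1 to 163.0 in KO_PBS, and 4 were lower in KO_ASO. Of 6 pericyte and smooth muscle markers 1 was higher and 2 lower in KO_PBS, and of 5 Schwann cell markers 0 passed in any of the 6 comparisons. Of 6 myofibre markers 2 were lower in KO_PBS, and their sums, from 94640 to 119000 CPM, were all below those of WT_PBS, from 133600 to 174800. The table held no gene at 0 in all samples, so a marker without reads would be missing from it, and all markers of these lists were present. The part of cell content in the collagen values was not tested.

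The second comparison asked how the oligonucleotide changed collagen genes in Bin1mck-/- muscle. It uses the same KO_PBS samples as the first, so a value that is extreme in KO_PBS enters both. Of 40 tested members 1 was a DEG, Col4a5, which was 2.11-fold lower, where 3.64% of all genes were called and 2.83% lower. Col4a5 measured 2.34, 2.59, 1.77 and 3.21 CPM in KO_ASO, each below every KO_PBS sample (log2FC -1.07, SE 0.21, edgeR adjusted P = 0.00935). It was the only one of the 40 members whose groups did not overlap in this comparison, beside 6.34% of all genes with all KO_ASO samples lower. In direction 30 of 40 members had a log2FC below 0, the median was -0.30 against 0.01 over all genes, and 11 had an unadjusted P value under 0.05, beside 17.7% of all genes.

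The members nearest to the threshold in this comparison had large SDs in KO_ASO. Col8a1 measured 6.16, 4.38, 6.33 and 19.3 CPM in KO_ASO, so replicate 4 lay within the KO_PBS range and the other three lay below it (log2FC -1.91, SE 0.57, edgeR adjusted P = 0.0814). That difference, 3.75-fold lower, was 6.0-fold without KO_ASO replicate 4 and 2.41-fold without KO_PBS replicate 1. Col9a1 measured 3.18, 2.75, 2.11 and 6.20 CPM, 3 of 4 above every KO_PBS sample (log2FC 1.098, SE 0.32, edgeR adjusted P = 0.067). Col22a1 measured 48.5, 24.2, 74.9 and 36.4 CPM (log2FC 0.96, SE 0.30, edgeR adjusted P = 0.0944). Col5a2 measured 21.5, 25.4, 52.0 and 62.8 CPM (log2FC -1.04, SE 0.33, edgeR adjusted P = 0.0989) and Col14a1 5.65, 6.52, 11.4 and 16.7 CPM (log2FC -0.98, SE 0.33, edgeR adjusted P = 0.115). Without KO_ASO replicate 4, Col5a2, Col8a1 and Col14a1 were called as well, and without KO_ASO replicate 2 Col22a1 was. These fits called 5.47% and 2.15% of all genes. With a replicate block Col5a2, Col8a1 and Col14a1 were called too, where calls over all genes went from 544 to 752. DESeq2 called 6 members, 4 lower and 2 higher, and 6.83% of all genes with an adjusted P value.

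By class, the fibrillar sum in KO_ASO was 52.9, 54.3, 192.3 and 198.7 RPKM, 2 samples far below every WT_PBS sample and 2 inside the KO_PBS range. Col1a1 followed the same split, with 96.3, 81.6, 509.6 and 451.3 CPM in KO_ASO (log2FC against KO_PBS -0.63, SE 0.63, edgeR adjusted P = 0.681). Col3a1 measured 174.5, 189.3, 440.3 and 668.4 CPM (log2FC -1.04, SE 0.45, edgeR adjusted P = 0.241). Col4a1 measured 225.6, 336.6, 483.3 and 487.9 CPM, with replicate 1 below all 8 PBS samples and replicate 2 within their range (log2FC -0.20, SE 0.28, edgeR adjusted P = 0.786). The type VI sum was 18.4, 22.9, 38.1 and 52.1 RPKM in KO_ASO and 42.0 to 62.6 in KO_PBS. With this spread the 95% interval for Col1a1 ran from -1.97 to 0.71 on the log2 scale, an interval that holds 0.

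The third comparison asked what the oligonucleotide did in WT muscle. With edgeR 0 of 40 members were DEGs, as with DESeq2 and limma-voom, where edgeR called 0.00668% of all genes, DESeq2 35 genes and limma-voom 1. Col18a1 alone had an unadjusted P value under 0.05 (log2FC -0.53, SE 0.22, edgeR adjusted P = 0.749), beside 6.45% of all genes. The median log2FC was -0.22 and 24 of 40 members were below 0. The mean fibrillar sum hardly differed, at 135.8 ± 82.3 RPKM in WT_ASO and 133.5 ± 14.2 in WT_PBS (SD, n = 4), but the single samples did, at 43.0, 91.2, 191.9 and 216.9 RPKM in WT_ASO. Col1a1 measured 82.9, 181.5, 506.2 and 607.4 CPM in WT_ASO, 2 samples below and 2 above the whole WT_PBS range, and its log2FC of 0.22 had a 95% interval from -1.12 to 1.56. The sign of that value turned with limma-voom (-0.41), with a replicate block (-0.20) and without WT_ASO replicate 3 (-0.0282) or 4 (-0.21). Col3a1 measured 118.3, 311.0, 492.4 and 416.0 CPM, and Col6a1 43.4, 50.8, 88.8 and 104.4 CPM.

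Each treated sample was described by how many members lay below all 8 PBS samples, from the same values as the sums above. WT_ASO replicate 1 lay below all 8 PBS samples for 10 of 11 fibrillar, 5 of 5 type VI, 5 of 7 basement membrane and 3 of 18 other collagens, or 23 of the 41 members, where it did so for 13.3% of all genes tested. KO_ASO replicate 1 did so for 11 fibrillar, 5 type VI, 3 basement membrane and 3 other members, beside 10.3% of all genes. WT_ASO replicate 2 did so for 6 fibrillar, 3 type VI, 4 basement membrane and 7 other members, or 20 of the 41, beside 17.9% of all genes. KO_ASO replicate 2 did so for 9 fibrillar, 3 type VI, 1 basement membrane and 5 other members, or 18 of the 41, beside 10.9% of all genes. In the replicates numbered 3 and 4 of these groups the count was between 2 and 4 of the 41, beside 8.33% to 17.1% of all genes. The tendon markers summed to 106.4, 100.3, 239.7 and 249.3 CPM in WT_ASO and to 111.1, 73.2, 310.8 and 137.1 in KO_ASO. The fibroblast markers summed to 81.1, 66.7, 121.0 and 105.4 CPM in WT_ASO and to 69.2, 90.7, 87.6 and 137.6 in KO_ASO. Their part in the low collagen values was not tested.

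The remaining comparisons placed treated Bin1mck-/- muscle against both WT groups. Against WT_PBS, KO_ASO gave 0 DEGs among the 40 members with edgeR, DESeq2 and limma-voom, where edgeR called 0.0401% of all genes, DESeq2 87 genes and limma-voom 7, and 3 had an unadjusted P value under 0.05, beside 8.22% of all genes. These 3 were Col24a1, Col28a1 and Col6a6, named after their values were seen. Col4a5 had a log2FC of 0.12 with a 95% interval from -0.33 to 0.57, Col8a1 of 0.94 with an interval from -0.30 to 2.18 (0.26 without KO_ASO replicate 4) and Col9a1 of -0.04 with an interval from -0.69 to 0.61. Against WT_ASO, 0 members were DEGs by the 3 tools, where edgeR called 0.0735% of all genes, DESeq2 402 genes and limma-voom 2, and Col15a1 alone had an unadjusted P value under 0.05 (log2FC 0.71, SE 0.32, edgeR adjusted P = 0.305), beside 15.1% of all genes. For the interaction, which tests whether the oligonucleotide effect differed between genotypes, 0 members passed by the 3 tools, where edgeR called 0.575% of all genes, DESeq2 371 genes and limma-voom 108. Col4a5 had the only unadjusted P value under 0.05 among the members, beside 12.7% of all genes, with a log2 difference between effects of -0.98 (SE 0.30, edgeR adjusted P = 0.161).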

How the data were processed

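Poly(A) RNA of tibialis anterior was sequenced from stranded libraries of 16 samples in 4 groups. The deposited table holds unnormalized counts of reads for each Ensembl gene. The tools listed in the submitters' processing notes were STAR 2.5.3a, HTSeq 0.6.1p1, Bowtie2 2.2.8 and cutadapt 1.10, with build GRCm38 and no stated roles. Symbols and exon lengths were taken from GENCODE M21, which matched all 29730 identifiers.

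Counts were tested with edgeR 4.0.16 under R 4.3.3. The filter filterByExpr kept 14960 genes, library sizes were TMM-normalized (trimmed mean of M values), and the 16 samples were fitted together by robust quasi-likelihood with a mean for each of the 4 groups. A gene was a DEG at an adjusted P value under 0.05. CPM and RPKM use TMM-scaled libraries. The scripts were tested on simulated data. DESeq2 1.42.0, limma 3.58.1 and the other alternatives appear in the closing section. Wherever limma-voom is named, it was run with sample weights. Class sums were described without a test.

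The members and all lists were chosen with earlier results of these data known. Members described throughout were 20 fixed ones and every member called, 22 in all. Any other member given with values was singled out after they were seen. No sample was left out. Within groups, pairs of samples differed by a mean chi-square of at least 22.2 per gene, far above sampling noise.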

Additional observations from a re-analysis of the deposited data

Results flagged for a closer look

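Within-group extremes were sought in the 41 members and the 4 class sums, in 180 groups of 4 samples, where chance flags about 1 in 20, and 12 had a single sample far from the other three (Dixon's criterion). Col6a5 was the most uneven gene, with 1 high sample in each group, namely 4.27 CPM in WT_PBS replicate 1, 5.95 in WT_ASO replicate 4, 4.34 in KO_PBS replicate 2 and 0.991 in KO_ASO replicate 2, where no other sample exceeded 0.759 CPM.

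Col4a5 was at 3.46 CPM in KO_PBS replicate 2, below the other three, which were between 5.63 and 5.99. Col8a1 was at 19.3 CPM in KO_ASO replicate 4, above the other three. Col24a1 was at 8.92 CPM in KO_ASO replicate 4, where the others were between 6.46 and 6.62. In WT_PBS, Col11a2 was at 9.13 CPM in replicate 1, Col19a1 at 0.335 CPM in replicate 2 and Col20a1 at 2.87 CPM in replicate 2. Col9a3 was at 0.584 CPM in WT_ASO replicate 4. The sum of the other collagens was 25.0 RPKM in KO_PBS replicate 1, the sample with the highest Col8a1.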

How the results depend on the processing

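Of the 40 members, 3 were called in KO_PBS against WT_PBS. The count was 5 with library totals only, 5 with DESeq2, 4 with limma-voom and 11 with the compared groups only, where calls over all genes went from 1878 to 2202, 2478, 2699 and 2064, and it ran from 2 to 5 when a sample was left out, with 5 without KO_PBS replicate 2, where Col5a2 and Col14a1 were added. The split was 2 higher and 1 lower in the main result and 4 higher and 1 lower with library totals, which moved the median log2FC of all genes to 0.14, so that uncorrected values lie higher by about this shift. Without WT_PBS replicate 1 Col4a3 was called lower and Col9a1 was not. Col4a5 and Col8a1 were called under every alternative run for that comparison. In KO_ASO against KO_PBS the count of 1 became 6 with DESeq2 and 4 with limma-voom, where calls over all genes went from 544 to 1045 and 1190, and it ran from 1 to 4 when a sample was left out, with 4 without KO_ASO replicate 4 and 2 without KO_ASO replicate 2. Col4a5 was called under every alternative run there. The other 4 comparisons stayed at 0 members under all alternatives run. The 120 recomputed class ratios moved by less than 1 SD.

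Replicate numbers are shared by the groups, but samples of the same number did not deviate together throughout (correlations from -0.078 to 0.435), so the numbers were not taken to pair the samples. In 29 of 48 cases a sample correlated best with its own number among the 4 samples of another group. This is a hint from the data and not from the design, and WT_ASO and KO_ASO share their low collagen values in replicates 1 and 2. The P values of the main fit take no account of such a link. With a replicate block the counts were 5 in KO_PBS against WT_PBS, where Col5a2 and Col14a1 were added, and 4 in KO_ASO against KO_PBS, where Col5a2, Col8a1 and Col14a1 were added. Calls over all genes went from 1878 to 2322 and from 544 to 752 in these comparisons.

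Of the recomputed values of single genes, 925 kept their direction and their side of the threshold, 32 came to pass it, 5 no longer passed it and 26 changed sign. The sign changes were of uncalled log2FC values, and the cause was not tested. In WT_ASO against WT_PBS, limma-voom and the replicate block gave -0.41 and -0.20 for Col1a1, -0.39 and -0.17 for Col1a2 and -0.0889 and -0.0201 for Col5a3. Col18a1 was at -0.0526 with limma-voom in KO_PBS against WT_PBS. With a sample left out, Col18a1 ran from -0.0331 to 0.18 in that comparison, and in KO_ASO against KO_PBS Col4a2 ran from -0.33 to 0.0124 and Col25a1 from -0.44 to 0.0389. In WT_ASO against WT_PBS the ranges were -0.21 to 0.54 for Col1a1, -0.34 to 0.47 for Col1a2, -0.52 to 0.0099 for Col3a1, -0.21 to 0.28 for Col5a3, -0.40 to 0.0126 for Col6a1, -0.30 to 0.0831 for Col14a1, -0.40 to 0.14 for Col19a1 and -0.0413 to 0.40 for Col9a1.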

Other observations

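Col28a1, a chain known from peripheral nerve, measured 0.994, 1.60, 2.26 and 1.76 CPM in WT_PBS and 2.91, 1.76, 3.63 and 11.4 in KO_ASO. Its highest sample, KO_ASO replicate 4, also had the highest sum of Schwann cell markers in that group, at 72.1 CPM against 29.9 to 56.3 in the other three. In WT_ASO the highest Col28a1 value, 3.89 CPM, fell in replicate 4, which had a Schwann cell marker sum of 117.5 CPM. The other groups went the opposite way. In WT_PBS the highest marker sum, 61.3 CPM in replicate 1, went with the lowest Col28a1 value of that group, 0.994 CPM. In KO_PBS the highest marker sum, 66.6 CPM in replicate 4, went with the lowest Col28a1 value there, 1.31 CPM. Col11a1, the partner of Col11a2 in type XI, ranged from 0.575 to 11.1 CPM within KO_ASO and from 1.05 to 9.31 within WT_ASO.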
